A study of Arabidopsis thaliana with 24 samples.

Results

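The cysteine-rich receptor-like kinases (CRKs) of Arabidopsis thaliana were followed in rosettes exposed to ozone. The family was taken as 42 listed loci, and all 42 were found among the 32678 loci of every count table. By locus number alone they were split into 4 tandem clusters on chromosome 4, a pair on chromosome 1 and 8 single genes. RNA from pooled whole rosettes of 3-week-old plants was sequenced in 24 libraries, as 8 groups of 3 biological replicates. The accession Te exposed to 350 ppb ozone for 2 h was set against Te controls, and the reference accession Col-0 and the line CT101 were treated in the same way; where CT101 comes from is not stated in the labels. The accession C24 gave the last pair of groups, and the series states that C24 and Te differ in ozone sensitivity. The labels do not say how long after the exposure the rosettes were frozen, and they name no transgene or mutation in any line.

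CRKs are membrane receptors whose outer part carries a pair of cysteine-rich domains (DUF26) and whose inner part is a serine/threonine kinase. Many of them lie in tandem arrays, and in leaves they are known for transcriptional induction by pathogens, salicylic acid and reactive oxygen. Ozone enters through the stomata and forms reactive oxygen species in the apoplast, the space that the outer domains face. Several members have been placed beside immune receptors and the NADPH oxidase RBOHD at the plasma membrane.

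The libraries held 13633768 to 25789925 counts, so that 1 count at the median depth was worth 0.0532 CPM (counts scaled to a common library size, with the library factors of edgeR). In every line the ozone library with replicate number 2 lay closest to the controls on the first principal component. On that component Col-0 control replicate 2 lay at -86.2, against -117 and -110 for the other Col-0 controls. CT101 control replicate 1 lay at -121, against -94.9 and -91.2 for the other CT101 controls. The 4 leaf markers had counts in every group, and their summed level was 29330 to 33850 CPM in Te ozone libraries and 50160 to 55240 CPM in Te controls. Those markers were also lower under ozone in CT101 (18500 to 25720 against 44670 to 53480 CPM), Col-0 (29900 to 38370 against 47200 to 48290 CPM) and C24 (23930 to 32140 against 36060 to 44870 CPM). Of 5 root hair markers, EXPA18 and LRX1 had 0 counts in every group, and the summed level was at most 0.192 CPM in any library. The 4 flower markers summed to at most 2.55 CPM, with AP1 at 0 counts in 6 groups. In pooled rosettes, fewer cells of a type and less RNA per cell cannot be told apart. Reads of all lines were counted on loci of the Col-0 genome, so for Te, CT101 and C24 a lower level and reads lost to a diverged or missing copy cannot be told apart either.

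Stretches of 250 bases before the annotated start are shown for 4 genes with large increases and, after them, for the 2 genes that fell in more than 1 line. They come from the RefSeq assembly TAIR10.1 and are written 5′ to 3′ on the strand of the gene. Capitals mark TTGACC or TTGACT, read on either strand, the core of the W-box that WRKY transcription factors bind.
CRK36 (minus strand, chr4:2234690-2234939): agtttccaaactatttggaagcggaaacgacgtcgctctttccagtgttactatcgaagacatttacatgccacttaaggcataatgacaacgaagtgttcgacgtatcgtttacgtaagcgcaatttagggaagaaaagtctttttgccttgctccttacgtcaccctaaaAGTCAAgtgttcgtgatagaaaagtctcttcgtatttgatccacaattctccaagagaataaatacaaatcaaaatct
CRK37 (plus strand, chr4:2238120-2238369): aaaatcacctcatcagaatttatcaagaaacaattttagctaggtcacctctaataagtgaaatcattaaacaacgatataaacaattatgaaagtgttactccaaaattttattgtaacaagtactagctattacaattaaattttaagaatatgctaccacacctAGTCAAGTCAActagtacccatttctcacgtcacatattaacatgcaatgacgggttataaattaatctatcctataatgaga
CRK11 (minus strand, chr4:12143859-12144108): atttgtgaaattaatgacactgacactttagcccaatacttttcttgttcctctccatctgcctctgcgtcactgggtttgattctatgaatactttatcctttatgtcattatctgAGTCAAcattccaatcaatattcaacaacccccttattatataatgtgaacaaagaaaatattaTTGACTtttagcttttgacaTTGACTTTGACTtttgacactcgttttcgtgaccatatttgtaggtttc
CRK31 (plus strand, chr4:6967459-6967708): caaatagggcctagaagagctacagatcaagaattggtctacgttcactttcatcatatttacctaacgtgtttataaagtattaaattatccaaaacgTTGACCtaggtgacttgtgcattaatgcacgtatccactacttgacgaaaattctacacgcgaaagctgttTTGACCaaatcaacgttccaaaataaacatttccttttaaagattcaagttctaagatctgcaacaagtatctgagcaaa
CRK21 (minus strand, chr4:12180937-12181186): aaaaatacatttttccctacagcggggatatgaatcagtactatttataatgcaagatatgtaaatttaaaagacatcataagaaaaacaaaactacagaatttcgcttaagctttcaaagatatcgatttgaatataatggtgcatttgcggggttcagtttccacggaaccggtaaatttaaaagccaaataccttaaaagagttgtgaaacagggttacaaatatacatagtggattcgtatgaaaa
CRK42 (plus strand, chr5:16151272-16151521): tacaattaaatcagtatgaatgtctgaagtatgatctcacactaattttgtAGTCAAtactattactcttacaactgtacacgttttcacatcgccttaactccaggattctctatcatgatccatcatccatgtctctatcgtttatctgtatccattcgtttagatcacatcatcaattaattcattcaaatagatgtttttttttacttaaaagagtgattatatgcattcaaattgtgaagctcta
CRK11 had 4 matches, the most of any member, with 3 of them close together near the start. CRK37 and CRK31 had 2 each, those of CRK37 sharing a base, and CRK36 and CRK42 had 1 each. CRK21 had none, but so had CRK12 and CRK13, which rose strongly. Of the 42 members, 26 (61.9%) held at least 1 of the 2 hexamers, against 28.4% of 27443 protein-coding nuclear genes with a stretch of the same length. At least 2 matches were present in 11 members (26.2%), against 6.18% of all genes. Among these members, the stretches of CRK14, CRK15, CRK16, CRK18 and CRK24 lie partly or wholly inside loci in the deposited coordinates. That of CRK16 lies inside CRK17, and that of CRK15 runs into CRK16. The matches fell in 13 of the 20 members of the largest cluster and in neither member of the chromosome 1 pair. These are letter matches, and no binding was measured.

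Ozone raised most of the family in every line. Of the 39 members that passed the filter on low counts, 33 were called higher in Te, 35 in CT101, 32 in Col-0 and 31 in C24 (edgeR quasi-likelihood test, Benjamini-Hochberg adjusted p under 0.05). Among all 20554 genes tested, 32% were called higher in Te, 32.9% in CT101, 30% in Col-0 and 25.6% in C24. Of these members, 34 stood at 0.532 CPM or more (10 counts at the median depth) in all 8 groups, and CRK4, CRK26, CRK27, CRK31 and CRK32 lay below it in some group and passed through the others. Calls of a lower level numbered 2 in Te, 3 in CT101, 2 in Col-0 and 1 in C24, against 30.9%, 32.4%, 26.9% and 22.2% of all genes in the same order of lines. The median log2 fold change of the tested members was 2.70 in Te, 2.73 in CT101 (the same with CRK27 at the bound given further on), 2.21 in Col-0 and 1.97 in C24, while the median of all genes lay between -0.034 and -0.013. An increase of at least 2 on the log2 scale was called for 25 members in Te, 23 in CT101, 23 in Col-0 and 18 in C24, against 11.1%, 10.8%, 9.28% and 6.2% of all genes. In all 4 lines, 30 members rose and CRK42 fell, where 21.6% of all genes tested were called higher and 17.7% lower in each line. Leaving out the 4 ozone libraries with replicate number 2 moved none of these counts of calls by more than 1.5 times except that of members that fell in C24, which was then 2.

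**Figure D1:**
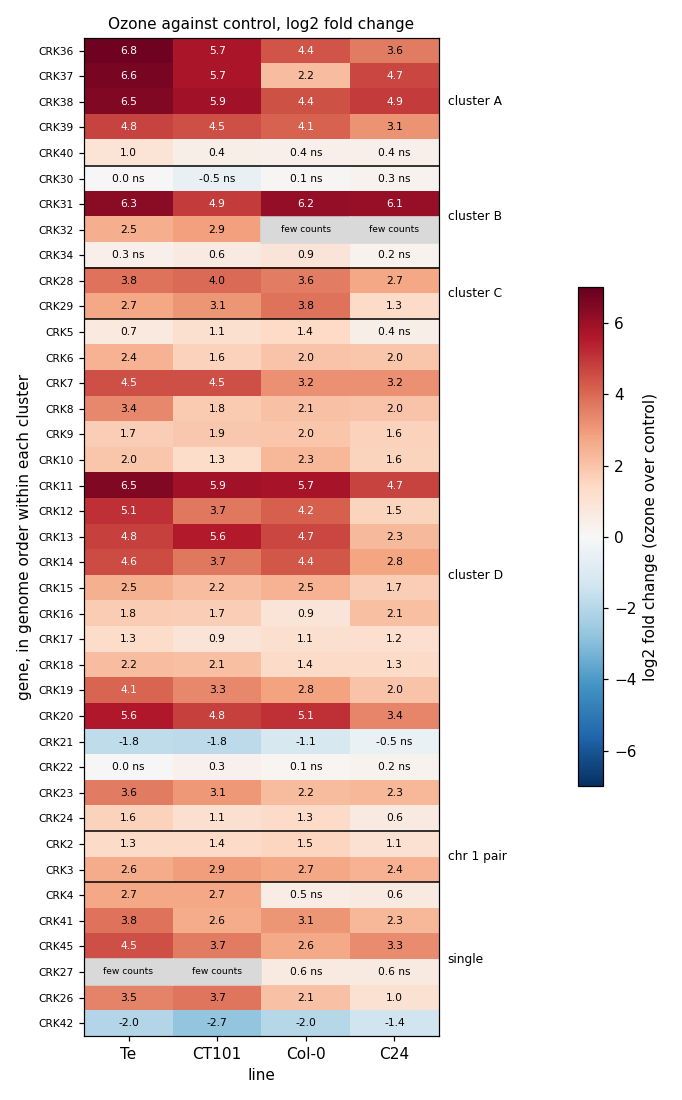
Log2 fold change of ozone over control for the 39 tested members (down the page, by cluster and in genome order) in 4 lines (across); ns marks values that were not called, and grey cells had 3 counts or fewer in a group. Red fills most of the map, CRK36 in Te reaches 6.81, and CRK42 is blue in all 4 lines.

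Together the 42 genes took 0.271 ± 0.041% of all counts in Te ozone libraries and 0.0460 ± 0.0030% in Te controls (SD, n = 3 each). In CT101 the share was 0.289 ± 0.047% under ozone and 0.0561 ± 0.0118% in controls, and in Col-0 it was 0.241 ± 0.023% under ozone and 0.0606 ± 0.0107% in controls. C24 had the highest share in both states, at 0.377 ± 0.065% under ozone and 0.115 ± 0.004% in controls. The ozone and control libraries of a line did not overlap in this share. The 20 genes of the largest cluster made up the greater part of it in every group, for example 0.151% in Te ozone libraries and 0.0293% in Te controls.

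**Figure D2:**
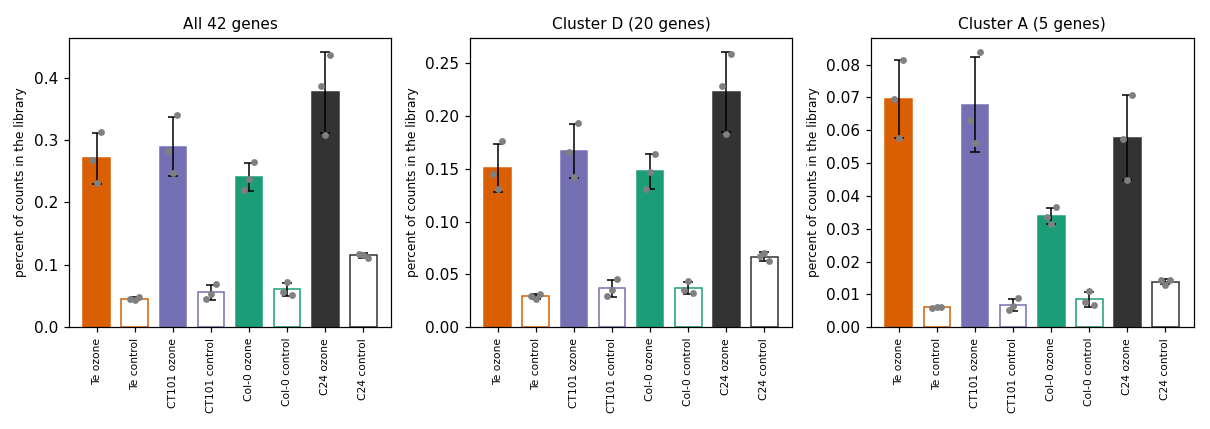
Percent of a library's counts that fell on all 42 genes, on the 20 genes from CRK5 to CRK24 and on the 5 genes from CRK36 to CRK40; bars are means, error bars SD and points the 3 libraries, with ozone filled and control open. In each line every ozone library lies above every control library, and C24 controls stand highest of the controls in all panels.

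Cluster A, CRK36 to CRK40 (AT4G04490 to AT4G04570), spans 60.8 kb at chr4:2231957-2292755 in the coordinates of the deposited tables and holds 8 other loci between its members. Of the 4 clusters it had the highest median log2 fold change in each line: 6.49 in Te, 5.73 in CT101, 4.15 in Col-0 and 3.62 in C24. Larger increases than those of its members occurred outside it in Col-0 and C24, among them that of CRK31. CRK36, which has been described in a complex with the cytosolic kinase CRK45 in abscisic acid signalling, had 406, 311 and 482 CPM in Te ozone libraries, against 3.91, 4.08 and 2.64 CPM in Te controls. The lowest ozone library thus lay far above the highest control, and the log2 fold change was 6.81 ± 0.49 (SE, adjusted p = 8e-10). CRK36 averaged 251 ± 81.7 CPM in C24 ozone libraries and 20.3 ± 1.78 CPM in C24 controls (SD, n = 3 each), a log2 fold change of 3.62 ± 0.42 (adjusted p = 1.1e-06).

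CRK37 and CRK38 were nearly silent in unexposed Te plants. CRK37 had 69.3, 54.2 and 93.1 CPM in Te ozone libraries, against 0.538, 0.918 and 0.725 CPM in Te controls. It rose by 6.63 ± 0.67 on the log2 scale (adjusted p = 6.4e-08), with no overlap of the groups. In Col-0 the same gene had 11.9, 24.4 and 24.1 CPM under ozone and 1.63, 9.62 and 1.55 CPM in controls, where replicate 2 of the controls stood apart from the others. Its log2 fold change there was 2.19 ± 0.52 (adjusted p = 0.0014) and became 3.66 without Col-0 control replicate 2. CRK38 had 57.1, 47.9 and 123 CPM in CT101 ozone libraries, against 0.355, 1.53 and 1.98 CPM in CT101 controls, a log2 fold change of 5.89 ± 0.59 (adjusted p = 5.3e-08). In C24 CRK38 had 89.9, 63.3 and 149 CPM under ozone and 2.85, 3.56 and 3.55 CPM in controls, a log2 fold change of 4.92 ± 0.54 (adjusted p = 7e-07). All ozone libraries of both lines lay above all of their controls.

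CRK39 rose in all 4 lines, by 4.75 in Te, 4.50 in CT101, 4.15 in Col-0 and 3.15 in C24 on the log2 scale. CRK40, at the far end of the cluster, changed far less than its neighbours. It averaged 98.8 ± 13.6 CPM in Te ozone libraries and 50.9 ± 1.57 CPM in Te controls (SD, n = 3 each), a log2 fold change of 0.96 ± 0.17 (adjusted p = 4.7e-05). In CT101 the change was 0.43 ± 0.17 (adjusted p = 0.029), a call that was lost with library totals as the scale, in a fit of the compared libraries alone, and without CT101 control replicate 1 or 2 or CT101 ozone replicate 1 (adjusted p up to 0.23). In Col-0 (0.38 ± 0.17) and C24 (0.35 ± 0.17) it was not called, with adjusted p of 0.055 and 0.087. Col-0 was called with the replicate number as a block (adjusted p = 0.040) and without Col-0 control replicate 2 (0.53, adjusted p = 0.021) or Col-0 ozone replicate 3 (0.46, adjusted p just under the threshold).

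**Figure D3:**
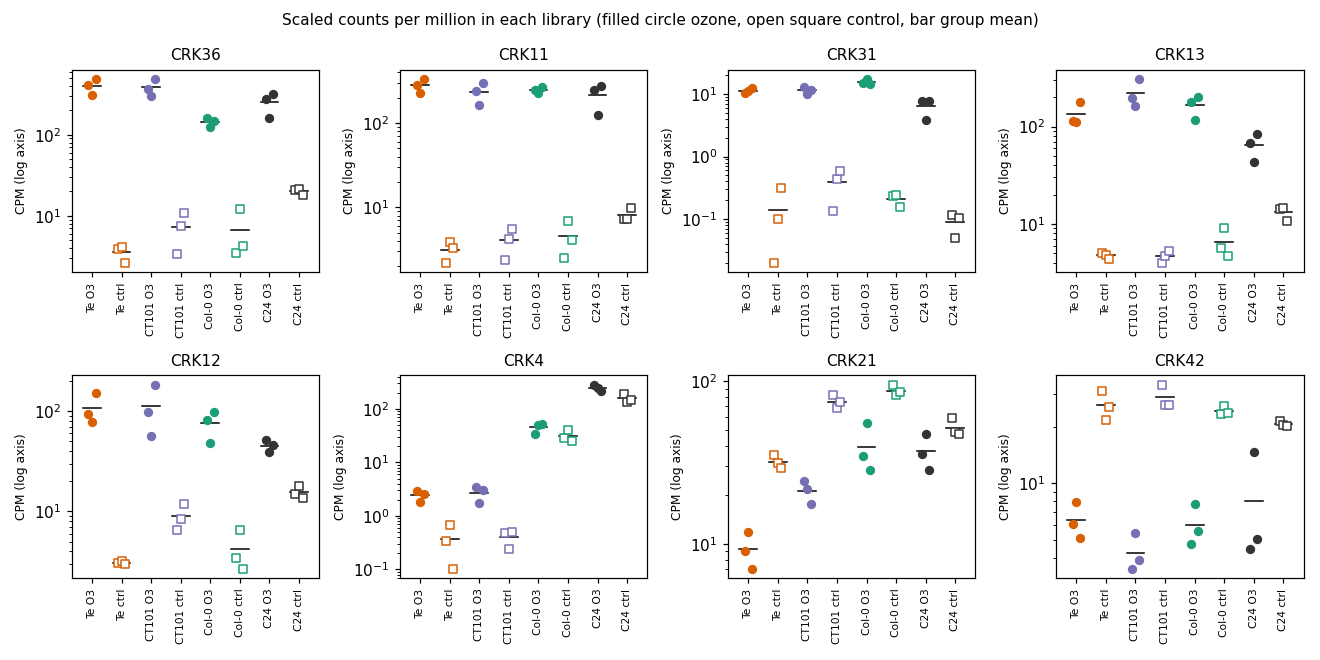
CPM of 8 members in every library on log axes, with ozone as filled circles left of control as open squares in each line and a bar at the group mean; libraries at 0 CPM are drawn at 0.02. CRK36, CRK11, CRK31, CRK13 and CRK12 are higher in all ozone libraries, and CRK42 is lower in all of them. CRK4 is lower in Te and CT101 than in Col-0 and C24, with the Te and CT101 controls near the bottom of its panel.

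Cluster D is the array from CRK5 to CRK24 (AT4G23130 to AT4G23320), with 20 members in 74.4 kb at chr4:12117541-12191977, 9 on the plus strand and 11 on the minus strand. In Te 18 of its 20 members were called higher and 1 lower, in CT101 19 and 1, in Col-0 18 and 1, and in C24 17 and 0. Its median log2 fold change was 2.48 in Te, 1.98 in CT101, 2.13 in Col-0 and 1.83 in C24, with CRK11 at the top and CRK21 at the bottom in every line. CRK11 had 285, 231 and 335 CPM in Te ozone libraries, against 2.2, 3.87 and 3.31 CPM in Te controls. In Col-0 it had 249.6, 226 and 269 CPM under ozone and 2.5, 6.99 and 4.13 CPM in controls. Its log2 fold change was 6.50 ± 0.42 in Te, 5.86 ± 0.40 in CT101, 5.75 ± 0.40 in Col-0 and 4.74 ± 0.38 in C24, with adjusted p between 2e-10 and 2.4e-08 and no overlap in any line. The 4 W-box matches printed above are those of this gene, and whether they bear on its response was not tested.

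CRK12 and CRK13, the minus-strand neighbours of CRK11, also rose in all 4 lines. CRK13, whose overexpression has been linked to cell death and resistance to bacteria, had 197, 161 and 308 CPM in CT101 ozone libraries, against 4, 4.75 and 5.3 CPM in CT101 controls. In C24 the CRK13 values were 67.1, 43 and 84 CPM under ozone and 14.3, 14.6 and 10.8 CPM in controls. The groups did not overlap in either line, and the log2 fold change was 5.57 ± 0.34 in CT101 and 2.29 ± 0.30 in C24. CRK12 had 94.8, 77.3 and 150.2 CPM in Te ozone libraries and 3.03, 3.16 and 2.95 CPM in Te controls, a log2 fold change of 5.14 ± 0.44. In C24 it had 51.2, 38.8 and 45.9 CPM under ozone and 15, 18 and 13.6 CPM in controls, a log2 fold change of 1.54 ± 0.37. C24 had both the higher control level and the lower ozone level of CRK12, with no overlap between C24 and Te libraries in either state.

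CRK19 and CRK20, for which induced expression has been linked to rapid cell death, stood beside CRK21, which fell. CRK20 had 38, 33.8 and 42.1 CPM in Col-0 ozone libraries, against 1.4, 0.904 and 1.03 CPM in Col-0 controls, a log2 fold change of 5.11 ± 0.38 (adjusted p = 1.5e-09). CRK19 rose by 4.09 in Te, 3.35 in CT101, 2.84 in Col-0 and 2.01 in C24 on the log2 scale. Next in the array, CRK21 had 9.05, 11.8 and 7.03 CPM in Te ozone libraries, against 35.4, 31.6 and 29.1 CPM in Te controls. In CT101 it had 24.5, 21.8 and 17.5 CPM under ozone and 82.2, 68.5 and 74.2 CPM in controls. Every ozone library of these lines lay below every control, and the log2 fold change was -1.79 ± 0.23 in Te (adjusted p = 1.2e-06) and -1.82 ± 0.22 in CT101 (adjusted p = 5.1e-07). Col-0 libraries had 34.6, 55.8 and 28.3 CPM under ozone and 95.3, 81.8 and 85.7 CPM in controls, a log2 fold change of -1.15 ± 0.22 (adjusted p = 0.00014). In C24, with 35.9, 47.1 and 28.6 CPM under ozone and 59.2, 48.7 and 47.5 CPM in controls, the log2 fold change of -0.48 ± 0.22 was not called (adjusted p = 0.073). It was called with the replicate number as a block (-0.50, adjusted p = 0.022), with library totals as the scale (-0.57, adjusted p = 0.039), without C24 ozone replicate 2 (-0.68, adjusted p = 0.021) and without the 4 ozone libraries of replicate number 2 (-0.71, adjusted p = 0.0015).

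**Figure D4:**
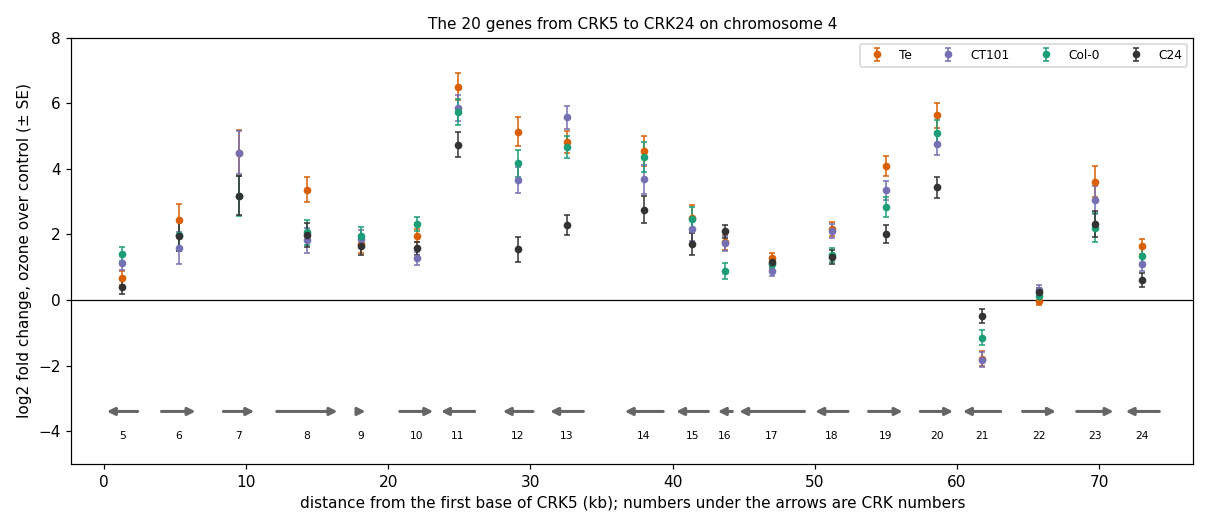
Log2 fold change of ozone over control (points, with SE) for the 20 genes of the largest cluster against the distance of each gene's midpoint from the first base of CRK5 in kb; arrows show each gene's extent and strand, and colours the 4 lines. CRK11 stands highest in all 4 lines, CRK21 lies below 0, and of its neighbours CRK20 lies above 3 and CRK22 near 0.

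The neighbour on the other side of CRK21 was CRK22, which changed little. It had 33.9, 33.5 and 42.7 CPM in CT101 ozone libraries and 32.9, 27 and 28.6 CPM in CT101 controls, a log2 fold change of 0.31 ± 0.13 (adjusted p = 0.044) that was not called with library totals as the scale, with no filter, with the compared libraries alone, or when CT101 control replicate 2 or 3 or CT101 ozone replicate 1 or 3 was left out (adjusted p up to 0.27). No other line gave a call for CRK22. Toward the other end of the array, CRK6 and CRK7, described as protecting against oxidative damage in the apoplast, rose in all 4 lines. CRK7 had 44.2, 35.1 and 52.7 CPM in Te ozone libraries, against 1.12, 2.8 and 1.92 CPM in Te controls, a log2 fold change of 4.50 ± 0.69. C24 libraries had more of it in both states, 326, 210.4 and 468 CPM under ozone and 33.9, 39.1 and 37.8 CPM in controls, a log2 fold change of 3.18 ± 0.60. In Col-0 the fold changes of CRK6 and CRK7 were 1.97 ± 0.48 and 3.18 ± 0.61, and 3.26 and 4.83 without Col-0 control replicate 2, in which CRK6 stood at 39 CPM and CRK7 at 17.7 CPM. In a fit of the compared libraries alone the Col-0 call of CRK6 was lost (adjusted p = 0.062). CRK5, whose overexpression has been linked to stronger defence, rose by 0.67 for Te, 1.13 for CT101 and 1.40 for Col-0 and was not called in C24 (0.40, adjusted p = 0.13). Its call in Te was lost without Te control replicate 2, without the 4 ozone libraries of replicate number 2 or with library totals as the scale (adjusted p up to 0.074).

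The remaining members of the array (CRK8 to CRK10, CRK14 to CRK18, CRK23 and CRK24) rose in all 4 lines, by 0.62 (CRK24 in C24) to 4.55 (CRK14 in Te). The call of CRK24 in C24 was lost when C24 control replicate 2 or 3 or C24 ozone replicate 1 or 3 was left out (adjusted p up to 0.061). CRK10 was among the higher ones per kb of exon, at 70.1 ± 5.2 CPM per kb in Te ozone libraries and 18 ± 2.4 CPM per kb in Te controls (SD, n = 3 each). Some members of the array resemble each other closely. Of the 50-base stretches in the exons of CRK6, 22.0% occurred elsewhere in the genome, mainly in CRK8, and of those in CRK13 15.4% occurred in CRK22. For CRK8 the share was 16.5% and for CRK22 16.2%, while 16 members had none, so the split of reads within the pairs CRK6 with CRK8 and CRK13 with CRK22 is uncertain. In the RefSeq models the exons of CRK16 overlap those of CRK17, and those of CRK28 overlap those of CRK29. Neither pair overlaps in the coordinates of the deposited tables. How reads of these genes were assigned is not given in the sources used here.

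Cluster B, CRK30 to CRK34 (AT4G11460 to AT4G11530, 25.1 kb at chr4:6964468-6989599), held strongly induced genes beside ones with small changes. CRK31 was close to silent in controls: it had 15.3, 17.5 and 14.6 CPM in Col-0 ozone libraries, against 0.233, 0.247 and 0.155 CPM in Col-0 controls. In C24 the gene had 7.63, 3.79 and 7.85 CPM under ozone and 0.116, 0.0494 and 0.104 CPM in controls. The groups did not overlap, and the log2 fold change was 6.33 ± 0.43 in Te, 4.91 ± 0.37 in CT101, 6.17 ± 0.40 in Col-0 and 6.09 ± 0.48 in C24. CRK32, its plus-strand neighbour, gave 106 counts in the 3 Col-0 ozone libraries and 1 count in the 3 Col-0 controls, a ratio of CPM of 102 (exact 95% interval 18 to 4076, counting error only). In C24 it gave 72 counts under ozone and 3 in controls, a ratio of 24.9 (8.19 to 124). CRK32 also rose in Te (2.55 ± 0.59) and CT101 (2.88 ± 0.56).

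CRK30, first in that cluster, was called in no line. It had 8.24, 11.1 and 8.57 CPM in Te ozone libraries and 6.06, 10.8 and 11.3 CPM in Te controls, and the groups overlapped in every line. In CT101 it was called lower with the replicate number as a block (-0.48, adjusted p = 0.031) and without CT101 control replicate 1 (-0.71, adjusted p = 0.034). CRK34, last in the cluster, rose in CT101 (0.61 ± 0.19, adjusted p = 0.0081, or 0.059 without CT101 ozone replicate 2) and Col-0 (0.89 ± 0.20, adjusted p = 0.00084). In Te (0.34, adjusted p = 0.12) and C24 (0.22, adjusted p = 0.35) it did not pass. CRK33 had too few counts to be tested, with 14 counts in the Te ozone group and 1 in Te controls, 13 and 3 in CT101, 0 and 0 in Col-0, and 5 and 1 in C24.

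Cluster C consists of CRK28 and CRK29 (AT4G21400 and AT4G21410, 5.9 kb at chr4:11399131-11405056), and both rose in all 4 lines. CRK28, which has been found with the receptors FLS2 and BAK1, averaged 54.9 ± 13.4 CPM in Te ozone libraries and 3.86 ± 0.842 CPM in Te controls (SD, n = 3 each), a log2 fold change of 3.83 ± 0.34. CRK29 had 139, 69.1 and 129.7 CPM in Col-0 ozone libraries and 8.61, 8.01 and 7.79 CPM in Col-0 controls. In C24 it had 17.7, 9.38 and 19.3 CPM under ozone and 5.94, 6.23 and 6.53 CPM in controls. Neither pair of groups overlapped, and the log2 fold change was 3.79 ± 0.33 in Col-0 and 1.32 ± 0.32 in C24.

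The chromosome 1 pair, CRK2 and CRK3 (AT1G70520 and AT1G70530, 6.7 kb), changed by similar amounts in the 4 lines. CRK2, a kinase reported to phosphorylate RBOHD, averaged 63.7 ± 5.09 CPM in Te ozone libraries and 25 ± 1.54 CPM in Te controls (SD, n = 3 each). It rose by 1.35 in Te, 1.36 in CT101, 1.51 in Col-0 and 1.08 in C24 on the log2 scale. The changes of CRK3 were 2.60, 2.92, 2.68 and 2.43 in the same order of lines, all of them called.

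Single genes ranged from strong increases to the one decrease seen in all lines. CRK45, a cytosolic kinase also named ARCK1, averaged 350.4 ± 109 CPM in C24 ozone libraries and 35.1 ± 4.18 CPM in C24 controls (SD, n = 3 each). Per kb of exon it was the highest member in C24 ozone libraries, at 208 ± 65 CPM per kb, while CRK36 was highest in Te (176 ± 38) and CT101 (169 ± 42) and CRK11 in Col-0 (98.1 ± 8.6 CPM per kb). The spread of CRK45 and of CRK7, at 150 ± 58 CPM per kb in C24 ozone libraries, overlapped. Counts were taken on the deposited loci but exon lengths from TAIR10.1, so ranks per kb are approximate. For CRK9, for example, the TAIR10.1 exons (1824 bp) are longer than the whole counted locus (1065 bp). CRK45 rose by 4.54 in Te, 3.66 in CT101, 2.63 in Col-0 (4.03 without Col-0 control replicate 2) and 3.32 in C24. CRK41 rose by 3.79, 2.57, 3.07 and 2.34 in the same order. CRK26 rose by 3.50, 3.73, 2.05 and 1.04, with 0.0518 to 0.306 CPM in the single control libraries of Te, CT101 and Col-0. Its call in C24 (adjusted p = 0.024) was lost without C24 control replicate 1 or 3 or C24 ozone replicate 3 (up to 0.10).

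CRK42 moved in the opposite direction. It had 6.09, 7.97 and 5.12 CPM in Te ozone libraries, against 31, 21.8 and 25.4 CPM in Te controls, and 3.52, 5.42 and 3.89 CPM in CT101 ozone libraries, against 33.4, 26.1 and 26.2 CPM in CT101 controls. In Col-0 it had 4.73, 7.75 and 5.58 CPM under ozone and 23.2, 25.8 and 23.8 CPM in controls. Every ozone library lay below every control, and the log2 fold change was -2.03 ± 0.32 for Te, -2.75 ± 0.32 for CT101 and -2.00 ± 0.31 for Col-0. In C24 it had 4.49, 14.6 and 5.07 CPM under ozone and 21.5, 20.4 and 20.2 CPM in controls, where ozone replicate 2 lay apart from the others. The log2 fold change there was -1.38 ± 0.31 (adjusted p = 0.0011), and -2.11 without that library. CRK42 overlaps AT5G40382 on the other strand, and without a stated strand setting reads of these loci cannot be told apart.

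CRK4, for which induced expression has been linked to cell death, was set apart by its level in the lines. It had 2.96, 1.82 and 2.59 CPM in Te ozone libraries and 0.342, 0.663 and 0.104 CPM in Te controls. In CT101 it had 3.41, 1.72 and 3.03 CPM under ozone and 0.489, 0.24 and 0.496 CPM in controls. Col-0 had 34.8, 49.98 and 51.6 CPM under ozone and 29.3, 40.7 and 25.5 CPM in controls. C24 stood above all of these libraries, with 285, 243 and 221 CPM under ozone and 194, 137 and 151 CPM in controls. CRK4 rose under ozone in Te (2.73 ± 0.43), CT101 (2.72 ± 0.40) and C24 (0.64 ± 0.24, adjusted p = 0.031) and was not called in Col-0 (0.51 ± 0.24, adjusted p = 0.075). The C24 call was lost with library totals as the scale and without C24 control replicate 2 or 3 or C24 ozone replicate 1 (up to 0.12), and Col-0 was called without Col-0 control replicate 2 (0.73, adjusted p = 0.026) or Col-0 ozone replicate 1 (0.67, adjusted p = 0.039).

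CRK27 had very few counts in Te and CT101. It gave 0 counts in the CT101 ozone group and 8 counts in CT101 controls, so it was at least 2.19-fold lower under ozone, taking 3 counts over the ozone group as its limit, and was called (adjusted p = 0.029), although CT101 control replicate 2 had 0 counts as well. The call was lost without CT101 control replicate 1 or 3, without any 1 of the CT101 ozone libraries and without the 4 ozone libraries of replicate number 2 (adjusted p up to 0.11). In Te it gave 4 counts under ozone and 2 in controls. In C24 it averaged 3.88 ± 0.494 CPM under ozone and 2.47 ± 0.514 CPM in controls (SD, n = 3 each), which was not called (adjusted p = 0.17). The C24 groups did not overlap, and a fit of the compared libraries alone called it higher there (0.64, adjusted p = 0.046). Col-0 libraries had 0.641, 0.888 and 0.663 CPM under ozone and 0.582, 0.616 and 0.206 CPM in controls, without overlap and without a call. CRK1 gave 0 counts in all 24 libraries, which allows up to 3 counts in a group, or at most 0.0651 CPM. CRK25 gave 77 counts over all libraries, overlaps AT4G05190 on the other strand and was not tested.

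Whether the response differed from that of C24 was tested as the difference of the fold changes. All 3 differences use the same C24 libraries. Levels in both states enter such a difference, so a higher fold change need not mean a higher level under ozone. In Te the log2 fold change was higher than in C24 for 11 members and lower for 1, where it was higher for 7.77% and lower for 1.81% of all genes. In CT101 there were 8 and 1 (7.09% and 2.61% of all genes), and in Col-0 3 and 1 (2.86% and 0.506%). Of these 25 calls, 15 held in all alternatives of processing and sample choice. Each was tried under 19 alternatives, and the calls lost most often were those of CRK24 in Te (12 of them) and of CRK39 (10) and CRK19 (9) in CT101. With the replicate number as a block, CRK14 (1.81), CRK18 (0.86), CRK28 (1.17) and CRK29 (1.43) were also called higher in Te, CRK18 (0.79), CRK20 (1.40) and CRK28 (1.3) in CT101 and CRK20 (1.75) in Col-0 (adjusted p between 0.0079 and 0.036). CRK42 (-1.32, adjusted p = 0.033) and CRK27, which had few counts, were then called lower in CT101. CRK13 was called in all 3 lines, with differences of 2.52 ± 0.42 for Te (adjusted p = 0.0008), 3.28 ± 0.42 for CT101 (0.0002) and 2.38 ± 0.41 for Col-0 (0.0024). CRK12 was called in all 3 as well, with 3.59 ± 0.55 for Te (adjusted p = 0.00043), 2.13 ± 0.52 for CT101 (0.017) and 2.62 ± 0.54 for Col-0 (0.0092). The CT101 call of CRK12 was lost without C24 ozone replicate 2, CT101 control replicate 1 or CT101 ozone replicate 3 (adjusted p up to 0.062).

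The log2 fold change of CRK36 was larger in Te than in C24 by 3.19 ± 0.57 (adjusted p = 0.0015), while the ozone libraries of these lines overlapped. That of CRK29 was larger in Col-0, by 2.48 ± 0.44 (adjusted p = 0.0028), and that of CRK26 in CT101, by 2.68 ± 0.62 (adjusted p = 0.012). The mean level of CRK26 in CT101 controls was only 0.174 CPM. The difference of CRK4 was 2.09 ± 0.50 in Te and 2.09 ± 0.47 in CT101, at the low levels given above. CRK21 fell further in Te (-1.31 ± 0.31, adjusted p = 0.01) and CT101 (-1.34 ± 0.31, adjusted p = 0.011) than in C24. CRK16 rose less in Col-0 than in C24 (-1.21 ± 0.32, adjusted p = 0.038). That last call was lost when any of 8 settings was used, among them leaving out any C24 control library (adjusted p up to 0.14).

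By cluster, the stronger responses in Te fell on 2 of 5 tested members of cluster A, 0 of 4 of cluster B, 0 of 2 of cluster C, 6 of 20 of cluster D, 0 of 2 of the pair and 3 of 6 single genes. These counts rest on single libraries to a degree: without Te ozone replicate 3 the Te count was 7. The CT101 count of 8 became 3 without CT101 ozone replicate 3, 4 without C24 ozone replicate 2 or CT101 control replicate 1, and 5 without C24 control replicate 2. The Col-0 count of 3 became 5 without Col-0 control replicate 2.

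**Figure D5:**
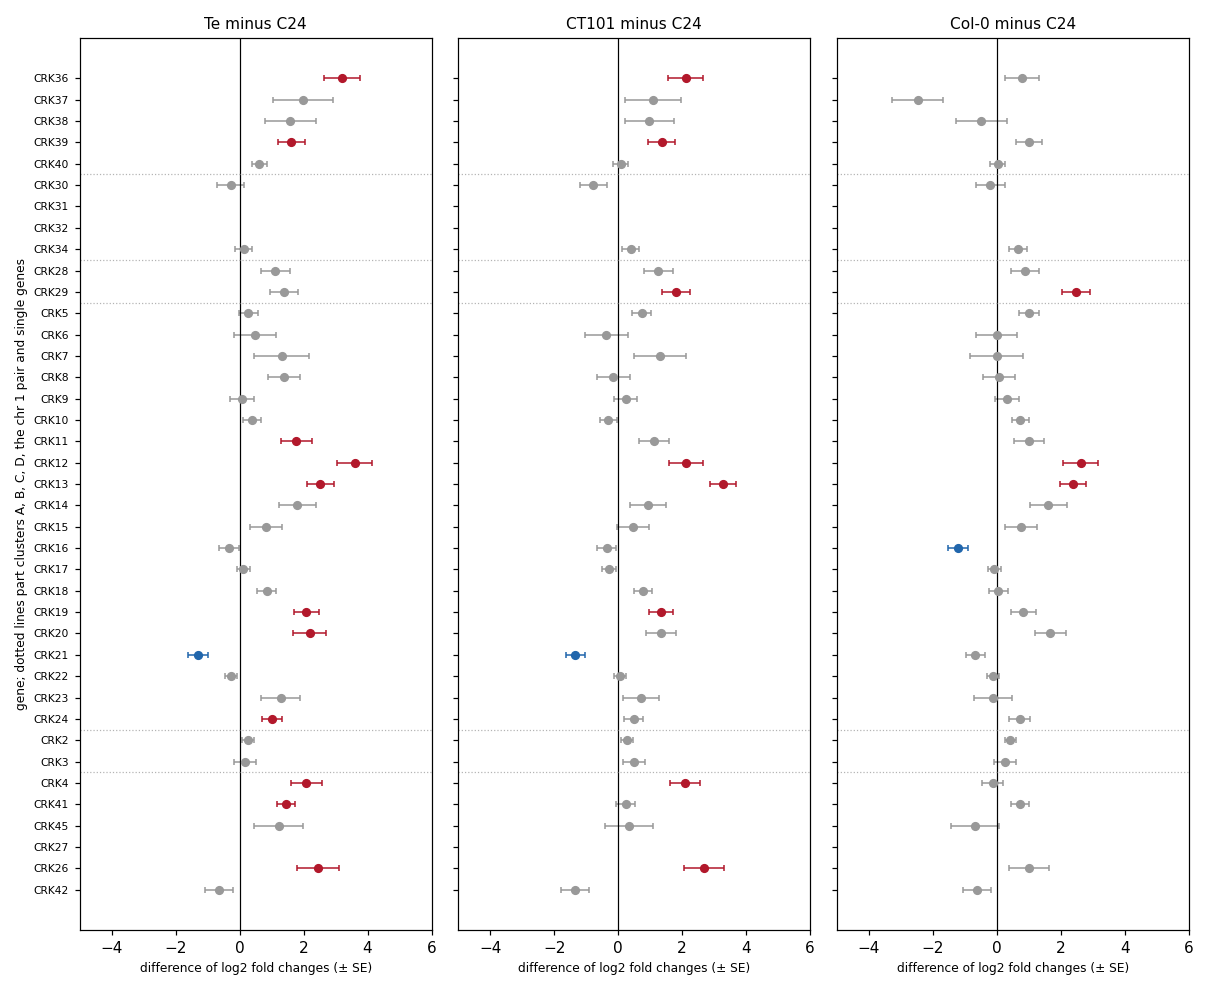
Difference between the ozone response of a line and that of C24 (log2, with SE) for 36 members in 3 panels; red points were called higher, blue points lower and grey points not called, and CRK27, CRK31 and CRK32 are not drawn because of their few counts. CRK4 and CRK26 are drawn, although their means in Te and CT101 controls also lay below 0.532 CPM. CRK12 and CRK13 are red in all 3 panels, and CRK21 is blue in Te and CT101.

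Many members were lower in unexposed plants of the other lines than in unexposed C24. Between controls, 26 members were called lower and 1 higher in Te than in C24, where 17.7% of all genes were lower and 12.4% higher. In CT101 21 were lower and 1 higher (10.4% and 6.18% of all genes), and in Col-0 22 were lower and 2 higher (14.7% and 11.7%). With library totals as the scale, the share of higher calls among all called genes was for Te 24.8% in place of 41.2%, 25.6% in place of 37.3% in CT101 and 33.5% in place of 44.4% in Col-0, whereas that among called members stayed between 3.4% and 8.7% under every scale. In the largest cluster 17 of 20 were lower for Te, 13 for CT101 and 14 for Col-0. The widest gap in Te and CT101, though not in Col-0, was that of CRK4, with differences of -8.73 ± 0.38 for Te, -8.59 ± 0.37 for CT101 and -2.33 ± 0.25 for Col-0 (adjusted p = 4.1e-13, 6.4e-13 and 4.4e-07). CRK23 differed by -3.87 for Te, -2.81 for CT101 and -3.35 for Col-0 on the log2 scale, with 2, 1.12 and 2.17 CPM in Te controls and 29.4, 21.6 and 27.1 CPM in C24 controls. CRK7 differed by -4.24 for Te, -2.39 for CT101 and -2.26 for Col-0, the last being -3.91 without Col-0 control replicate 2 and -1.81, not called, with the compared libraries alone (adjusted p = 0.096).

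CRK30 ran against this direction, with 6.06, 10.8 and 11.3 CPM in Te controls and 1.8, 2.08 and 2.56 CPM in C24 controls. It was higher by 2.12 ± 0.30 in Te and by 1.93 ± 0.30 in CT101 (adjusted p = 1.5e-05 and 8.4e-05). CRK21 was higher in Col-0 controls than in C24 controls by 0.76 ± 0.21 (adjusted p = 0.011), a call lost without C24 control replicate 2 or 3 or Col-0 control replicate 1 (up to 0.056). In CT101 it was called higher only with the replicate number as a block or in a fit of the compared libraries alone, among the settings that kept all libraries (0.54 and 0.55, adjusted p = 0.030 and 0.015). In Te controls CRK21 was instead called lower than in C24 controls (-0.69, adjusted p = 0.019). That call was lost without C24 control replicate 1 or Te control replicate 2 or 3 (up to 0.093). CRK37 was called higher in Col-0 controls (1.80 ± 0.64, adjusted p = 0.043), but the difference was 0.33 (adjusted p = 0.73) without Col-0 control replicate 2, and the call was also lost without any 1 of the C24 controls, with library totals as the scale, with no filter and with the compared libraries alone. Not called between controls of any of these lines and C24 were CRK3, CRK6, CRK17, CRK22, CRK28, CRK29, CRK31, CRK32, CRK39 and CRK42. Of these, CRK3, CRK17, CRK22 and CRK28 were called under no alternative either. CRK6 was called lower in Col-0 without Col-0 control replicate 2 (-1.77 in place of -0.48, adjusted p = 0.0012), in Te with the compared libraries alone (adjusted p = 0.0026) and in CT101 without CT101 control replicate 3 (adjusted p = 0.049), and the other 5 were each called under 1 to 3 alternatives in a line. With the replicate number as a block, CRK39 was called lower in Te (adjusted p = 0.049), CRK11 (-1.02, adjusted p = 0.039) and CRK19 (-0.80, adjusted p = 0.0079) in CT101, and CRK19 (-0.56, adjusted p = 0.040) and CRK38 (-1.66, adjusted p = 0.030) in Col-0.

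Under ozone, where no test was made between lines, levels of CRK4, CRK5, CRK6, CRK7, CRK9, CRK14, CRK15, CRK16, CRK23, CRK24, CRK27 and CRK45 in all libraries of the other lines lay below every C24 library, and those of CRK13, CRK29 and CRK31 lay above every C24 library. These are 12 and 3 of the 39 tested members, and among all genes tested 7.37% lay below and 6.62% above in the same way. CRK23 for example had 18.3, 17.1 and 29.4 CPM in Te ozone libraries, 23.7, 25.2 and 43.9 CPM in CT101, 6.02, 13.4 and 15.9 CPM in Col-0 and 157, 91 and 144 CPM in C24.

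Genes that act beside the family mostly rose as well. Of 9 receptor and oxidase genes, 7 were called higher in Te and 8 in each of CT101, Col-0 and C24, and 1 was lower in every line, set against the shares of all genes given above. The co-receptor BAK1 rose by 3.37 in Te, 3.19 in CT101, 2.97 in Col-0 and 2.31 in C24, and RBOHD by 2.88, 2.65, 2.78 and 2.17. The gene that fell was GHR1, a receptor kinase of stomatal closure, with log2 fold changes of -1.26 in Te, -1.29 in CT101, -1.19 in Col-0 and -0.84 in C24. RBOHF, the sister oxidase of RBOHD, rose by 1.63 in C24, by less in CT101 (0.62) and Col-0 (0.56), and was not called in Te (0.21, adjusted p = 0.32).

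Plasmodesmata-located proteins, which carry the same DUF26 domains without a kinase, gave calls in both directions. Of 7 tested among 8, 2 rose and 2 fell in Te and in CT101, and 1 rose and 2 fell in Col-0 and in C24. In Te and CT101 these counts are close to the shares of all genes called in each direction (32% and 30.9% in Te, 32.9% and 32.4% in CT101). PDLP5 (HWI1), which closes plasmodesmata in immunity, rose by 2.28 in Te, 3.20 in CT101, 1.61 in Col-0 and 1.94 in C24. PDLP3 fell in all 4 lines, with log2 fold changes of -1.10 in Te, -1.41 in CT101, -1.47 in Col-0 and -0.83 in C24. PDLP2 did so too, and PDLP1 was called higher in Te (1.97) and CT101 (1.66). None of the 28 annotated secreted cysteine-rich repeat proteins had enough counts to be tested.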

How the data were processed

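Per the labels, pooled rosettes gave the RNA, and TruSeq v2 RNA kits made the libraries. The submitters' processing notes name FastQC, Bowtie2, SAMtools and HTSeq with the TAIR10 build, so the notes are the source for these; their versions, settings and strand mode are not given in the sources used here. The authors deposited raw counts of reads per locus, 1 table per library. In R 4.3.3, edgeR 4.0.16 (TMM factors, filterByExpr with minimum count 10, robust quasi-likelihood fit of all 24 libraries, 1 mean per group) tested 20554 loci, with Benjamini-Hochberg adjustment over all of them and a call at adjusted p under 0.05. All 24 libraries entered every fit unless a setting says otherwise. CPM are scaled by the TMM factors; standard errors are the fold change over the root of F. Ratios with 1 to 3 counts in a group carry exact 95% Poisson intervals, and these and floors cover counting error only. Alternatives were RLE factors, library totals, no filter, a replicate block, compared libraries alone, DESeq2 1.42.0 and leaving out libraries (limma 3.58.1 is a dependency of edgeR). Leaving out the 4 ozone libraries of replicate number 2 was chosen after seeing the data. Methods were tested on simulated data, with all groups drawn from C24 control means and increases set in Te ozone libraries alone. Differences between unexposed lines, changes in a large share of genes and effects shared by equally numbered libraries were not simulated, so the simulation does not cover these features of the data.

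Residuals of equally numbered libraries correlated above 0.1 for all 3 numbers in the ozone comparisons of C24 (lowest 0.103) and CT101 (0.162) and in the control comparisons of Te (0.21), CT101 (0.182) and Col-0 (0.281) with C24, so numbers were taken to pair libraries there, not in Te (0.04) or Col-0 (0.049) ozone comparisons. Of the groups in a response difference, ozone libraries of the line and of C24 correlated above 0.1 for every number (lowest 0.165 for Te, 0.289 for CT101 and 0.254 for Col-0), as did the controls, while other pairs of groups did not all do so; calls with the block are given beside those results. Nothing in the labels says that a number marks a shared day.

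Members and gene lists were chosen with earlier results of these data known. Fully described genes are the 3 called members of largest fold change in each ozone comparison (mean log2 CPM of at least 1), members that fell, those called in response differences (the 3 largest where over 10) and those with under 3 counts in all libraries of a group. CRK names come from the RefSeq annotation of TAIR10.1, which names all 42. Of 31912 loci matched to it, 56.26% share a start or end with the tables, whose starts count from 0. Exon lengths, upstream stretches and 50-base matches come from TAIR10.1; gene coordinates come from the tables.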

Additional observations from a re-analysis of the deposited data

Results flagged for a closer look

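The 25 values here drew attention because the ozone response of a line differed from that of C24 in a test of the difference itself (edgeR quasi-likelihood interaction contrast, adjusted p under 0.05). Each is a log2 fold change of the line minus that of C24, every one of them uses the same 6 C24 libraries, and their causes were not tested.

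In Te, the members of cluster A that rose further than in C24 were CRK36 (3.19) and CRK39 (1.61). In the largest cluster they were CRK11 (1.76), CRK12 (3.59), CRK13 (2.52), CRK19 (2.08), CRK20 (2.19) and CRK24 (1.02), and CRK21 fell further (-1.31). The single genes CRK4 (2.09), CRK26 (2.45) and CRK41 (1.45) also rose further in Te. Mean levels in Te controls were only 0.369 CPM for CRK4 and 0.152 CPM for CRK26. In Te the call of CRK24 was lost in 12 of 19 alternatives, among them the omission of any 1 of 11 libraries of Te or C24 (all but Te ozone replicate 2). That of CRK11 was lost without C24 control replicate 3, C24 ozone replicate 2, Te control replicate 1 or 3 or Te ozone replicate 3. The CRK26 call was lost without C24 control replicate 2, Te control replicate 1 or 3 or Te ozone replicate 3, and the CRK39 call without C24 control replicate 1 or Te ozone replicate 3.

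In CT101, stronger increases were called for CRK36 (2.11) and CRK39 (1.36) of cluster A, CRK29 (1.80) of cluster C, CRK12 (2.13), CRK13 (3.28) and CRK19 (1.34) of the largest cluster, and the single genes CRK4 (2.09) and CRK26 (2.68). Mean levels in CT101 controls were only 0.408 CPM for CRK4 and 0.174 CPM for CRK26. CRK21 fell further (-1.34). The CT101 call of CRK39 was lost in 10 of 19 alternatives, that of CRK19 in 9, that of CRK36 in 5, that of CRK12 in 3 and that of CRK29 in 2. All 5 were lost without CT101 ozone replicate 3. Without C24 ozone replicate 2 or CT101 control replicate 1, CRK39, CRK19, CRK36 and CRK12 were lost, and without C24 control replicate 2, CRK39, CRK19 and CRK36. CRK39 and CRK19 were also lost without C24 control replicate 1, CT101 control replicate 2 or CT101 ozone replicate 1, and CRK39 without C24 control replicate 3. With the compared libraries alone CRK39, CRK19, CRK36 and CRK29 were lost.

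In Col-0, CRK12 (2.62), CRK13 (2.38) and CRK29 (2.48) rose further than in C24, and CRK16 rose less (-1.21), a call lost in 8 of 19 alternatives.

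Beside these values stand the control levels, which were lower in Te than in C24 for CRK36, CRK11, CRK12, CRK13, CRK19, CRK20, CRK24, CRK4, CRK26 and CRK41, and were not called different for CRK39. CRK21, which fell further in Te, was also called lower in Te controls (-0.69, adjusted p = 0.019). Under ozone, all Te libraries lay above every C24 library for CRK12, CRK13 and CRK39. The libraries of these lines overlapped for CRK36, CRK11, CRK19, CRK20, CRK26 and CRK41. For CRK4 and CRK24, and for CRK21, all Te ozone libraries lay below every C24 ozone library. The part of the control levels in the differences was not tested.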

How the results depend on the processing

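No called member changed sign under any alternative. Calls held in all alternatives for 130 of 139 calls in ozone comparisons (3 of them, CRK27 in CT101 and CRK32 in Col-0 and C24, with few counts in a group), 54 of 73 between controls and 15 of 25 in response differences. Counts of higher and lower members under ozone stayed within 1.5 times of those reported, except the members that fell in C24, which were 2 with library totals, with the replicate block and without the 4 ozone libraries of replicate number 2, and 1 to 2 when single libraries were left out. For the response of CT101 minus C24, higher calls were 4 with the compared libraries alone and 3 to 10 when single libraries were left out; lower calls were 3 with the replicate block, 3 in DESeq2, 2 without the 4 ozone libraries of replicate number 2 and 1 to 2 without single libraries. For Col-0 minus C24, higher calls were 5 in DESeq2 and 3 to 5 without single libraries, and lower calls were 2 without those 4 libraries and 0 to 2 without single libraries. Te minus C24 gave 7 to 13 higher calls without single libraries and 15 with the replicate block, where CT101 minus C24 gave 11 and Col-0 minus C24 gave 4. Among controls, higher calls for CT101 were 2 with the replicate block, 3 with the compared libraries alone, 2 in DESeq2 and 1 to 2 without single libraries. For Col-0 controls they were 1 with library totals, 1 without a filter and 0 to 2 without single libraries, and for Te controls 1 to 2. The causes were not tested. Scaling by library totals shifted the ozone fold change of the median gene (log2) by -0.136 in Te, -0.103 in CT101, -0.131 in Col-0 and -0.107 in C24, and that of Te against C24 controls by -0.129. Apart from the calls named beside the results, the replicate block changed no call in the comparisons whose numbers pair. Genes with under 10 counts per group are limited by depth, and CRK1, CRK25 and CRK33 could not be tested at this depth.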
